A study of Homo sapiens with 20 samples.

Results

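CTCF peaks that remained in IMR90 cells after CTCF siRNA were compared between 2 ChIP-seq protocols, a standard protocol and a low-cell protocol. The comparison used 4 of the 20 libraries of the series, chosen by cell line, antibody, siRNA and protocol, and the peaks that the authors called on chromosomes 1 to 22 and X. These lists hold 19177 and 18533 peaks in the 2 standard libraries and 5086 and 1941 peaks in the 2 low-cell libraries, of 253038 peaks in the 12 CTCF lists of the series. The series profiled CTCF in LNCaP prostate cancer cells and IMR90 cells, and H3K4me3 and H3K27ac in LNCaP cells, each in 2 libraries per treatment.

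IMR90 is an established line of normal human lung fibroblasts. All 4 libraries came from IMR90 cells collected 144 h after transfection began with a 20 nM pool of CTCF siRNAs. The labels describe a split and a repeat transfection midway, for IMR90 cells in the low-cell libraries, while the standard IMR90 libraries carry the text written for LNCaP cells. The standard libraries were made from 5000000 cells per immunoprecipitation, with a Millipore CTCF antibody and 50-bp single-end reads. The low-cell libraries were made with a commercial kit from 35000 cells and read as 75-bp single-end reads with molecular identifiers. The study lists more reads for each standard library than for either low-cell library, and the peak lists themselves carry no depth. Protocol, cell number, read length, aligner, depth and experiment differ together between the groups, so their parts in any difference cannot be told apart. Control siRNA libraries of both protocols and the LNCaP CTCF libraries, 2 each for control and CTCF siRNA, served as readouts that did not define any class of site. The identity of the cells cannot be checked against marker genes in CTCF peak lists, and the remaining CTCF protein was not measured in these files.

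CTCF is a zinc finger protein that binds a long, well-defined DNA motif, blocks the extrusion of chromatin loops by cohesin, and marks many boundaries of topological domains. It can also insulate promoters from enhancers and, at imprinted genes, binds the unmethylated allele. Sites with a close match to the motif tend to hold CTCF in many cell types.

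Merged sites with a peak in both standard libraries are called standard sites, and there were 16064. Of these, 1700 sites (10.6%) had a peak in both low-cell libraries, the sites of all 4 libraries, and 11617 (72.3%) had a peak in neither, the standard-only sites. In the other direction, 1838 sites had a peak in both low-cell libraries, of which 1699 (92.4%) had a peak in both standard libraries and 92 (5.01%) in neither, the low-cell-only sites. Windows of 30 bases around the best match to the 14-base CTCF core consensus motif are shown for the 8 strongest sites of each class, apart from TNKS and the 3 sites without a match, read from GRCh37 (hg19) on the strand of the match, with the match in capitals. They show what each class looks like at the base level, and for some of the sites described singly the mismatches to the consensus are given further on.

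Sites of all 4 libraries, strongest in the standard libraries:
WDR36 (chr5:110493993-110494022, plus strand): acattgtgCCAGTAGATGACGAcaccatct
TNK2, first site (chr3:195577881-195577910, minus strand): cacactgtCCACTAGGGGTCATcactgtcc
SLC22A8 (chr11:62791713-62791742, minus strand): cgctatagCCACCAGAGGGAGCagagggaa
GCM1 (chr6:53036809-53036838, plus strand): gggactggCCGGGAGATGGCAGccctgtcc
MYH3 (chr17:10520004-10520033, plus strand): cactcctgCCTCTAGGTGGCAGccttggct
Standard-only sites, strongest in the standard libraries:
BTNL2 (chr6:32383388-32383417, plus strand): acacatggCCAGTAGATGACAGgtttgttc
MYL4 (chr17:45307279-45307308, plus strand): accttccaCCACTAGATGACAAacttgcaa
GNL1 (chr6:30509396-30509425, plus strand): ctacgacaCCGGCAGATGGCGCtgcaaagc
CEBPE (chr14:23590138-23590167, plus strand): tgtgttgaCCACCAGGTGGCAAtattggcc
EFNA5 (chr5:107009522-107009551, minus strand): caggcccaCCACTGGAGGGCGTctggacgc
TNK2, second site (chr3:195586356-195586385, plus strand): acattttgCCAACAGGTGGTGCtgcctaac
AGFG2 (chr7:100157563-100157592, minus strand): ccctgtggACACTAGGGGGCAGaaccatcc
NPTN (chr15:73928984-73929013, minus strand): agacctttCCACCAGGGGGCGCgatcagca
Low-cell-only sites, strongest in the low-cell libraries:
NPIPB5 (chr16:22584643-22584672, plus strand): tccagcagGCGCTAGATGGCGCcaagactc
MYL10 (chr7:101331765-101331794, plus strand): cccgggcgCCGCTAGGTGGCGCcgcgctaa
ENSG00000283886 (chr9:41936681-41936710, minus strand): aacatcggCCGCCAGGTGGAGCccgacaac
OTOA (chr16:21768503-21768532, plus strand): tccagcagGCGCTAGATGGCGCcaagactc
SEC14L1 (chr17:75243266-75243295, minus strand): cgcacactCCAGCAGGTGGCGCtgcctccc
EPN2 (chr17:19105938-19105967, plus strand): gagagtcgCCAGCAGAGGGCGCtgtctaca
BLCAP (chr20:36193012-36193041, plus strand): gttccgctCCCGCAGGGGGCGCcagcgctc

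The standard-only sites include motifs as close to the consensus as those of the sites of all 4 libraries. The NPIPB5 and OTOA windows, on the same chromosome, hold the same 30 bases. Gene names are those of the nearest protein-coding gene and do not say that the site acts on the gene.

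The low-cell lists were shorter than the standard lists, and the low-cell lists differed from each other more than the standard lists did. The mean was 18855 ± 455 peaks (SD, n = 2) in the standard libraries and 3513.5 ± 2224 peaks (SD, n = 2) in the low-cell libraries, a ratio of 5.37. Low-cell replicate 1 held 2.62 times as many peaks as low-cell replicate 2. With 2 libraries against 2, the exact two-sided permutation test gave p = 0.33, the smallest it can give. Median peak width was 325 and 327 bp in the standard lists, 345 bp in low-cell replicate 1 and 169 bp in low-cell replicate 2. Median fold enrichment over local background, which is not scaled between libraries, was 11 and 11.3 in the standard lists and 8.27 and 6.58 in the low-cell lists.

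Most low-cell peaks lay within the standard lists. Of the peaks of low-cell replicate 1, 88.6% overlapped a peak of standard replicate 1 and 88.2% a peak of standard replicate 2. For low-cell replicate 2 the shares were 92.7% and 91.9%. These shares stood close to those between the standard replicates, of which 83.8% of replicate 1 and 86.7% of replicate 2 were found in the other. Within the low-cell protocol the lists were nested, since 97.4% of the peaks of replicate 2 were found in replicate 1 and 36.1% the other way. Standard peaks were found less often, with 23.5% and 24.2% in low-cell replicate 1 and 9.15% and 9.38% in low-cell replicate 2. A long list holds most of a short list more easily than the reverse, so these shares carry the difference in length.

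Recovery of the standard sites rose with their strength in the standard libraries. Low-cell replicate 1 had a peak at 4422 standard sites (27.5%, 95% Wilson interval 26.8 to 28.2%) and low-cell replicate 2 at 1725 (10.7%, 10.3 to 11.2%). The interval covers counting error only, and the difference between the 2 low-cell libraries was many times wider. Replicate 2 added 25 sites that replicate 1 lacked, so that 4447 standard sites (27.7%) had a peak in either. When the standard sites were split into deciles, 10 equal groups by mean standard fold enrichment, the weakest decile, at 1.61 to 6.66, had a peak in both low-cell libraries at 1.12% of sites and the strongest decile, at 29.3 to 85.2, at 45.5%. In low-cell replicate 1 the share was 3.48% in the weakest decile, 20.5% in the sixth and 80.0% in the strongest. In low-cell replicate 2 it was 1.12%, 5.60% and 45.8%. In each low-cell library the share was higher in every decile than in the one below it.

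The same sites were called far more often by the low-cell protocol when CTCF had not been depleted, in lists of 20179 and 19097 peaks against 5086 and 1941 after CTCF siRNA. Both low-cell control libraries had a peak at 12768 of the 16064 standard sites (79.5%), from 41.8% of the weakest decile to 98.1% of the strongest. Among these 12768 sites, 33.8% had a peak in low-cell CTCF siRNA replicate 1, 13.4% in replicate 2 and 13.2% in both. Among the 3296 standard sites without a peak in both low-cell controls, 13 (0.394%) had a peak in both low-cell CTCF siRNA libraries. Between replicates of the standard protocol, recovery also rose with strength, from 51.6% of the weakest decile of replicate 1 peaks to 100% of the strongest in replicate 2. Between the low-cell replicates, 5.11% of the weakest and 96.3% of the strongest decile of replicate 1 peaks had a peak in replicate 2.

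**Figure D1:**
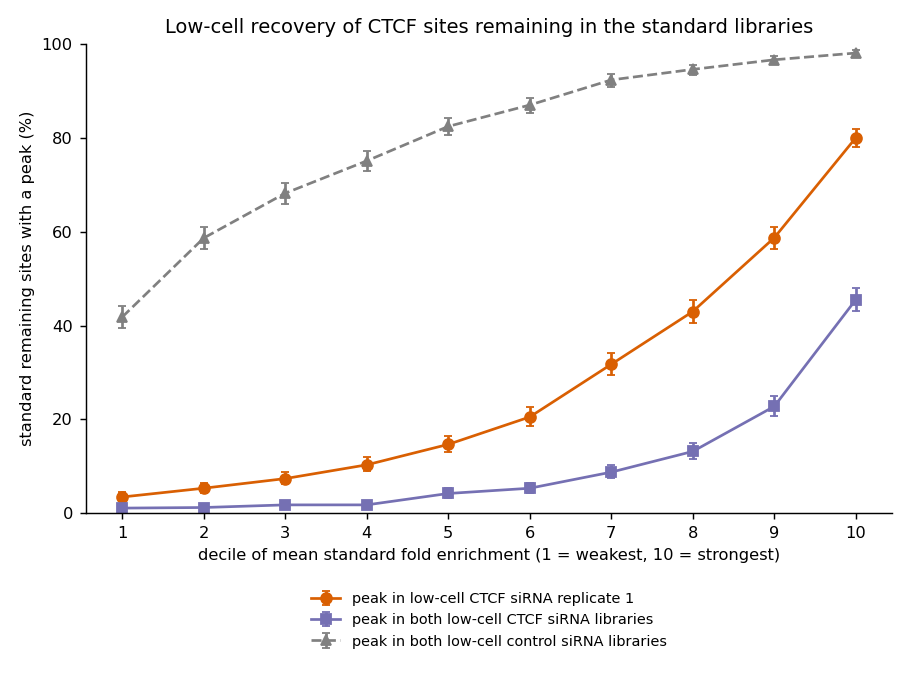
Share of the 16064 standard sites with a peak in low-cell libraries (y axis, percent), by decile of mean standard fold enrichment (x axis). Points are shares and bars are 95% Wilson intervals. Low-cell CTCF siRNA replicate 1 rises from 3.48% to 80.0% and both CTCF siRNA libraries from 1.12% to 45.5%, below the 41.8% to 98.1% with peaks in both low-cell control libraries.

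At sites called in both low-cell libraries, low-cell strength did not order standard presence in the same way. Both standard libraries had a peak at 92.4% of these sites, which left little room for a rise. When the 1838 low-cell sites were split by mean low-cell fold enrichment, both standard libraries had a peak at 91.8% of the weakest decile and 87.4% of the strongest, with a range of 87.4% to 95.1% over the deciles. The strongest decile was the lowest of the 10, and its interval, 81.8 to 91.5%, overlapped that of the weakest, 87 to 95%. Over all peaks of low-cell replicate 1, standard presence did rise with strength. Both standard libraries had a peak at 72.7% of its weakest decile, 93.1% of the ninth and 91.3% of the strongest. For low-cell replicate 2 the shares were 88.7% in the weakest and 88.1% in the strongest decile.

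Where both protocols called a site, they ranked it differently. Over the 1700 sites of all 4 libraries, Spearman's rho of fold enrichment was 0.864 between the standard replicates and 0.536 between the low-cell replicates. Between protocols the 4 values ran from 0.0733 to 0.152, with a mean of 0.109. The 1700 sites are limited to those called in the short list of low-cell replicate 2. Over the sites shared by each pair, in place of those shared by all 4, the mean rho between protocols was 0.174 and the mean within protocols 0.690. With low-cell replicate 1 the values between protocols were 0.276 and 0.243, over 4504 and 4481 sites. With low-cell replicate 2 they were 0.108 and 0.0689. These correlations are across sites that share libraries, local background and base composition, and they are descriptions with no test. Ranking by −log10 p gave a mean of 0.130 between and 0.693 within protocols. The fold enrichment of low-cell replicate 2 took few distinct levels, as the rows of points in its plot show.

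**Figure D2:**
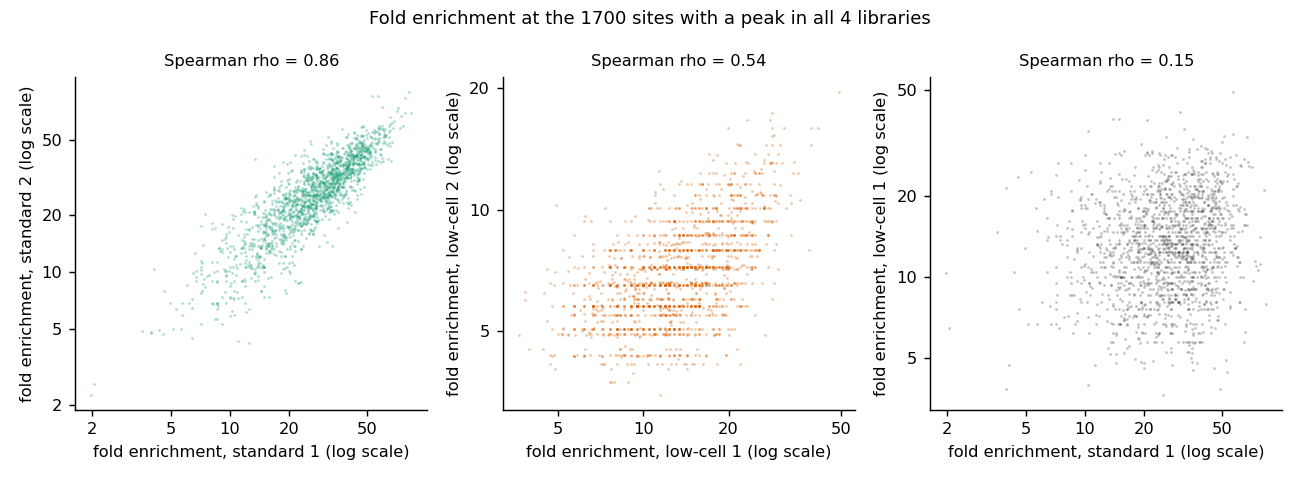
Fold enrichment at the 1700 sites with a peak in all 4 CTCF siRNA libraries, both axes on a log scale and 1 point per site, for the standard replicates (left), the low-cell replicates (middle) and standard replicate 1 against low-cell replicate 1 (right). The points follow a line within the standard protocol (rho = 0.864), less so within the low-cell protocol (0.536), and form a cloud between protocols (0.152).

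The 8 strongest sites of all 4 libraries held different places in the low-cell lists, and fold enrichment is not on one scale between libraries. The strongest decile of all low-cell replicate 1 peaks began at 17.6. The TNKS, SLC22A8 and GCM1 sites lay in that decile, so they stood high in both protocols. The DYRK4 site lay below the median of that list, 8.27. The site near TNKS, which encodes the poly-ADP-ribosyltransferase tankyrase, had the highest mean standard fold enrichment, 85.2. Its fold enrichment was 81.2 and 89.2 in the standard libraries and 21.1 and 9.0 in the low-cell libraries. The site in an intron of DYRK4, a dual-specificity kinase gene, was at 83.7 and 69.6 in the standard libraries and at 7.93 and 7.0 in the low-cell libraries, the lowest value of the 8 strongest sites in low-cell replicate 1. The site 8557 bp from NT5M, a mitochondrial nucleotidase gene, was at 77.3 and 83.0 in the standard libraries and 14.1 and 6.03 in the low-cell libraries. In contrast the GCM1 site, 23179 bp from the gene of a placental transcription factor, had 56.3 and 85.5 in the standard libraries and 34.1 and 13.2 in the low-cell libraries, the highest low-cell values of these 8 sites. The remaining 4 of the 8, at WDR36, TNK2, SLC22A8 and MYH3, were between 67 and 78 in the standard libraries.

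Of the last 4, the SLC22A8 site, 8437 bp from an organic anion transporter gene and with 1 mismatch to the motif, had fold enrichments of 25.7 and 12.3 in the low-cell libraries. The MYH3 site, 11850 bp from an embryonic myosin gene and with 1 mismatch, had 11 and 10.9. The WDR36 and first TNK2 sites, with 2 mismatches each, had 11.2 and 7.12, and 9.65 and 6.58. All 8 sites had a peak in every control siRNA library of both protocols and in every LNCaP CTCF library. The NT5M and DYRK4 sites had no match to the motif within 2 mismatches in the window searched.

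Equal list lengths removed the advantage of the long lists. Each list was reduced to its 1941 peaks of highest −log10 p, the length of the shortest list. That list, of low-cell replicate 2, was kept whole, so the lists were cut at different strengths. The lowest −log10 p left was 87.1 and 75.9 in the standard lists, 20.6 in low-cell replicate 1 and 5.22 in low-cell replicate 2. The standard replicates then shared 72.7% to 72.8% of their peaks and the low-cell replicates 71.7% to 74.1%, so that replicates of either protocol overlapped to a like degree. Lists of different protocols shared 43.3% to 45.4%, and the 8 directed shares between protocols did not overlap with the 4 within protocols. Ranking by fold enrichment in place of −log10 p gave 71.2% to 73.6% within and 40.9% to 42.3% between protocols. Among the 250 strongest peaks of each list the gap was wider, with 58.8% shared by the standard replicates, 48.8% by the low-cell replicates and 12.4% to 15.6% between protocols.

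**Figure D3:**
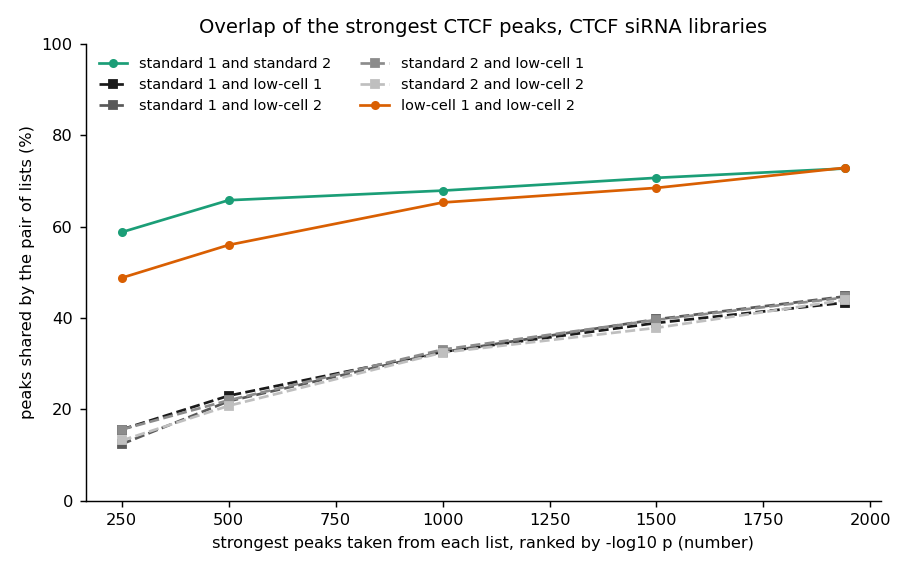
Share of peaks that overlap between a pair of lists (y axis, percent), when each list is limited to its strongest peaks by −log10 p (x axis, number of peaks). Solid lines are pairs of replicates and dashed lines pairs across protocols. At 250 peaks the across-protocol pairs sit between 12.4% and 15.6%, under the 48.8% and 58.8% of the replicate pairs, and at 1941 peaks between 43.4% and 44.7%, under 72.7% and 72.9%.

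At equal length 1411 sites had a peak in both standard lists. Both low-cell lists had a peak at 562 of them (39.8%, interval 37.3 to 42.4%), either list at 829 (58.8%) and neither at 582. Of 1391 sites in both low-cell lists, 599 (43.1%) had a peak in neither standard list. Of those 599 sites, 493 (82.3%) had a peak in both full standard lists and 70 had none in either, so most of them were sites that the standard libraries held at a lower rank. Of the 582 standard-only sites at equal length, 248 had no peak in either full low-cell list. None of the 582 could have a peak in both, because the list of low-cell replicate 2 was not cut. With this cut by −log10 p, recovery was less ordered by standard strength than in the full lists. Both low-cell lists had a peak at 45.1% of the weakest decile, 25.5% of the next and 64.5% of the strongest. With a cut by fold enrichment, the gap between top and bottom decile was 42.0 percentage points, against 44.4 in the full lists. With the cut by −log10 p the gap was 19.5 points. Over the 562 sites common to the 4 equal lists, rho of fold enrichment between protocols ran from -0.0153 to 0.0742, against 0.752 within the standard and 0.459 within the low-cell protocol.

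Positions agreed less closely between protocols than between the standard replicates, and least closely between the low-cell replicates. Over the 1700 sites of all 4 libraries, the median distance between summits was 13 bp for the standard replicates, 34 bp from either standard library to low-cell replicate 1, 44 bp to low-cell replicate 2, and 51 bp between the low-cell replicates. Peaks of low-cell replicate 2 had a median width of 174 bp at these sites, against 408 to 448 bp in the other libraries.

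Recovered sites matched the CTCF motif more closely, also within deciles of strength. A match with at most 1 mismatch lay within 100 bp of the summit at 72.8% of the sites of all 4 libraries and at 48.4% of the standard-only sites. Since the sites of all 4 libraries were stronger, with a median standard fold enrichment of 27.2 against 10.7, the standard-only sites were also weighted to the same deciles of strength, which gave 51.2%. The share was higher in the sites of all 4 libraries in 10 of 10 deciles. With up to 2 mismatches the shares were 92.7%, 78.4% and, weighted, 82.2%, higher in 8 of 10 deciles. In windows 1000 bp away, a match with up to 2 mismatches was found at 6.76% of the sites of all 4 libraries and 4.98% of the standard-only sites. Within deciles the sites of all 4 libraries were still the stronger in 8 of 10, with medians of 37.6 against 33.2 in the strongest, and the part of this in the weighted shares was not tested. Sites are not replicates, and the shares are given without a test.

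Recovery within the strongest decile fell with each further mismatch. Both low-cell libraries had a peak at 59.0% of its 368 sites with no mismatch, 46.3% of 672 with 1, 39.4% of 398 with 2, 27.7% of 155 with 3, and 23.1% of 13 with 4 or more. Median standard fold enrichment differed little between these groups, at 35.1, 35.9, 35.2, 36.2 and 33.2. In the ninth decile the shares for 0 to 3 mismatches were 32.0%, 23.9%, 15.8% and 12.5%.

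GC content moved with recovery as well. Median GC within 100 bp of the summit was 54.2% at the sites of all 4 libraries, 50.2% at standard sites found in low-cell replicate 1 and not in replicate 2, and 48.3% at standard-only sites, and it was higher in the sites of all 4 libraries than in the standard-only sites in 10 of 10 deciles. From the lowest to the highest of 5 equal groups of GC, or quintiles, the share of standard sites with a peak in both low-cell libraries rose from 4.14% to 18.3%. Within the strongest decile it was 37.6% in the lowest GC quintile and 55.5% in the highest, with 40.5% in the middle quintile. Of the sites in low-cell replicate 1, 20.7% of the lowest and 48.6% of the highest GC quintile were also in replicate 2. Over whole lists, median GC was 49.8% and 48.3% in the standard libraries and 52.7% and 54.2% in the low-cell libraries, but at equal length it was 55.7% and 52.7% against 54.7% and 54.2%, so that the groups overlapped. The part of GC in the motif difference was not tested.

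**Figure D4:**
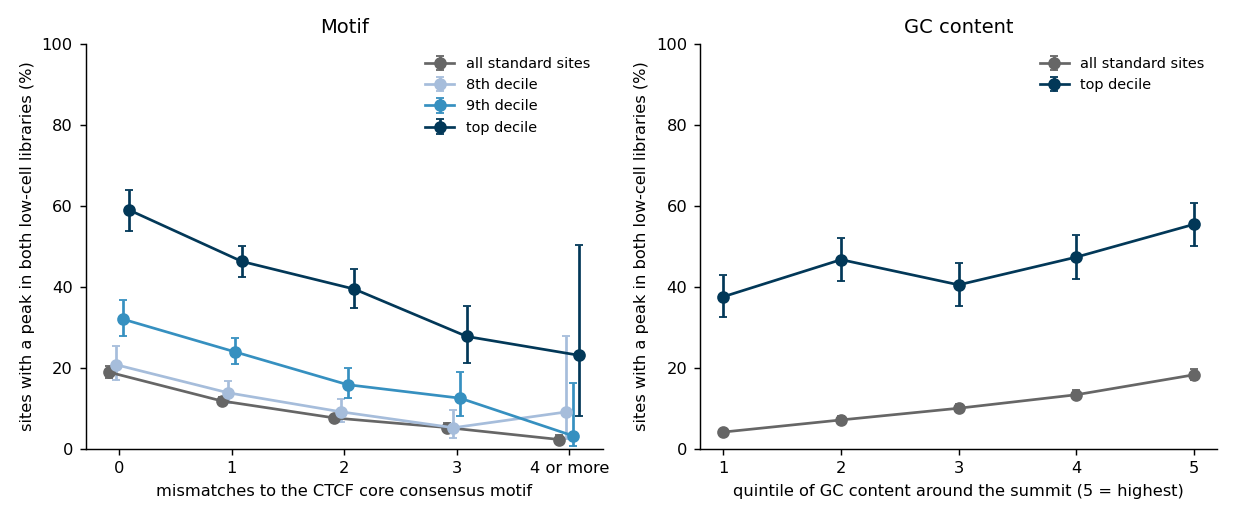
Share of standard sites with a peak in both low-cell libraries (y axes, percent) by the number of mismatches to the CTCF core consensus motif (left) and by quintile of GC content within 100 bp of the summit (right). Points are shares, bars 95% Wilson intervals, and colours the deciles of standard fold enrichment. In the top decile the share falls from 59.0% with no mismatch to 27.7% with 3, and differs between 37.6% and 55.5% over the GC quintiles.

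Recovered sites lay more often between genes. Of the sites of all 4 libraries 51.1% were intergenic and 40.1% intronic, against 34.8% and 54.7% of the standard-only sites, or 36.6% and 51% after weighting for strength. The intergenic share was higher in 10 of 10 deciles. By location, 14.3% of 6074 intergenic, 11.8% of 820 noncoding-exon, 8.15% of 8354 intronic, 7.28% of 591 UTR and 4.44% of 225 coding-exon standard sites had a peak in both low-cell libraries. Within the strongest decile the shares were 51.7% for intergenic and 41.3% for intronic sites. A transcription start within 1000 bp was found at 19.1% against 15.9%, and 17.8% after weighting. By chromosome, recovery in both low-cell libraries was lowest on X, at 16 of 468 sites (3.42%), and highest on chromosome 20, at 16.3%. Sites on X also had the lowest median standard fold enrichment, 10.9, and a median GC of 46.8% against 49.3% on the autosomes. In deciles 8 to 10, the strongest, 12.5% of X sites and 27.4% of autosomal sites had a peak in both low-cell libraries. In low-cell replicate 1 these shares were 53.4% and 60.7%. The part of strength and GC in the difference was not tested.

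Sites of all 4 libraries and standard-only sites also differed in libraries that had not defined them. Both LNCaP CTCF siRNA libraries had a peak at 67.3% of the sites of all 4 libraries and at 7.02% of the standard-only sites, or 20.2% after weighting for strength, and the share was higher in 10 of 10 deciles. In control LNCaP cells the shares were near the ceiling for both, at 99.4% and 93.2%. In the standard control libraries, median fold enrichment was 22.9 and 24.7 at the sites of all 4 libraries, against 27.3 and 26.0 in the standard CTCF siRNA libraries. At standard-only sites it was 18 and 18.6 in control and 10.6 in each CTCF siRNA library. Fold enrichment is relative to each library's own background, so the levels of different libraries are set side by side without a test.

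Within deciles of standard strength after CTCF siRNA, the recovered sites had weaker standard control peaks and stronger low-cell control peaks. Strength was matched to the decile and was not equal within it, since the median fold enrichment after CTCF siRNA was higher at the sites of all 4 libraries in 8 of 10 deciles. In the fifth decile, for example, median standard control fold enrichment was 11.1 and 13.7 at the sites of all 4 libraries and 18.3 and 19.1 at standard-only sites. In the same decile the low-cell control medians were 13.4 and 11.8 against 8.48 and 8.06. The standard control median was lower at the sites of all 4 libraries in 10 of 10 deciles in both control libraries, and the low-cell control median was higher in 10 of 10 deciles in both. These medians cover only sites with a peak in the control library. In the weakest decile, 40.3% of standard-only sites had a peak in both low-cell controls, and the sites of all 4 libraries numbered 18. In the strongest decile the differences were smaller, with 29 and 30.9 against 33.5 and 34.5 in the standard controls and 13.8 and 12.7 against 11.1 and 10.8 in the low-cell controls.

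The 8 strongest standard-only sites had mean standard fold enrichments of 46.9 to 74.5, above the median of 27.2 at the sites of all 4 libraries. The BTNL2 site on chromosome 6, 8413 bp from a butyrophilin-like gene of the major histocompatibility complex, was at 74.1 and 74.9 in the standard CTCF siRNA libraries and at 72.2 and 73.3 in the standard controls, with 1 mismatch to the motif. It had no peak in any of the 4 low-cell libraries, control included. The GNL1 site, in a UTR of a GTP-binding protein gene in the same region, was at 51.9 and 52 and likewise had no low-cell peak in control or CTCF siRNA cells. Both were peaks in all 4 LNCaP CTCF libraries.

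The other 6 had low-cell control peaks. The MYL4 site, 6222 bp from an atrial myosin light chain gene, was at 54.2 and 52.9 in the standard CTCF siRNA libraries and at 10.6 and 7.05 in the low-cell controls. The CEBPE site, 680 bp from the gene of a myeloid transcription factor, was at 52.5 and 49.9, and at 19 and 12.8 in the low-cell controls, above the 3.91 and 5.01 of the DYRK4 site, which both low-cell CTCF siRNA libraries called. The second TNK2 site, 3892 bp from this kinase gene, was at 48.3 and 47.8 and lies near the first TNK2 site, which all 4 libraries called. The NPTN site, 2482 bp from a gene of a neuronal cell adhesion protein, had no mismatch to the motif and was at 50.3 and 43.5. The remaining sites, 2917 bp from EFNA5, an ephrin ligand gene, and in an intron of AGFG2, were between 44.5 and 51.2.

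The loss of low-cell peaks at BTNL2 and GNL1 extended over their surroundings, a region chosen after these values were seen. Between positions 28000000 and 34000000 of chromosome 6, 91 standard sites lay in the span of the major histocompatibility complex and its flanks. Low-cell CTCF siRNA replicate 1 had a peak at 6 of them (6.59%, interval 3.06 to 13.6%), against 27.6% elsewhere. Both low-cell control libraries had a peak at 8 (8.79%), against 79.9% elsewhere and 77.8% on the rest of chromosome 6. The difference was therefore present without CTCF depletion. Low-cell lists also held peaks on alternative haplotype contigs of chromosome 6, with 15 and 0 in the CTCF siRNA libraries and 30 and 14 in the controls, where the standard lists held 0. The part of these contigs in the result was not tested.

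The 92 low-cell-only sites were as strong in the low-cell libraries as the sites that both protocols called. Their median fold enrichment was 13.1 in low-cell replicate 1 and 6.93 in replicate 2, against 13.3 and 6.58 at the sites of all 4 libraries. A motif with up to 2 mismatches lay at 70.7% of them (interval 60.7 to 79.0%), against 92.2% of low-cell sites with both standard peaks. In windows 1000 bp away it was found at 9.78% of the low-cell-only sites. A transcription start lay within 1000 bp of 34.8%, against 19.1% of the sites of all 4 libraries, and median GC was 67.2%. They were CTCF peaks without depletion as well, in 93.5% and 88.0% of cases in the low-cell control libraries, but in 4.35% and 13% in the standard control libraries. LNCaP control replicates differed from each other at these sites, at 56.5% and 21.7%.

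**Figure D5:**
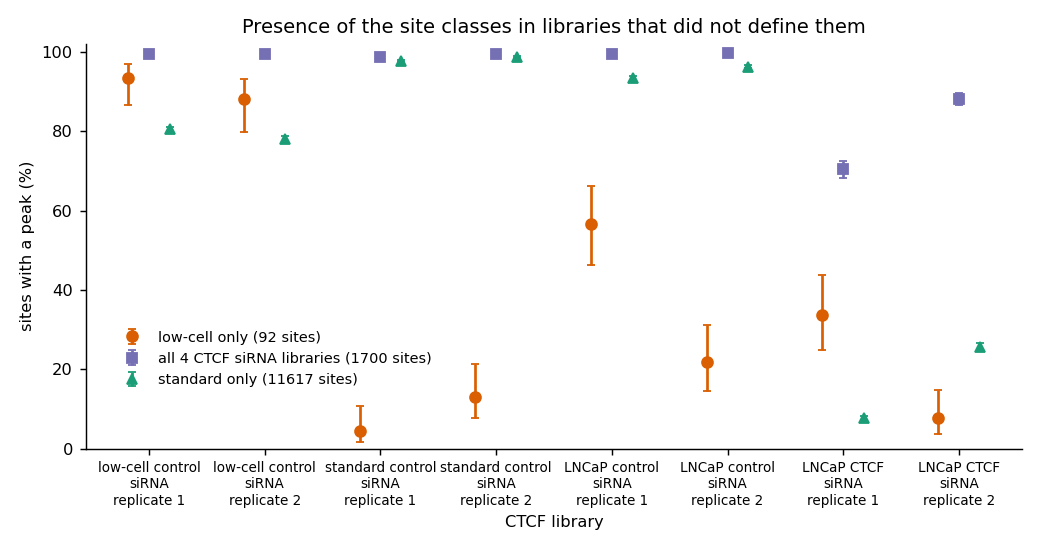
Share of sites with a peak (y axis, percent) in 8 CTCF libraries that did not define the classes (x axis), for the 92 low-cell-only sites, the 1700 sites of all 4 CTCF siRNA libraries and the 11617 standard-only sites. Points are shares and bars 95% Wilson intervals. Low-cell-only sites are at 93.5% and 88.0% in the low-cell controls and at 4.35% and 13% in the standard controls.

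Repeated sequence divided the low-cell-only sites. At 43 of the 92 sites (46.7%), at least 50% of the 50-base words around the summit occur elsewhere in the reference, compared with 1.12% of the sites of all 4 libraries and 0.439% of the standard-only sites. With 75-base words, the low-cell read length, the number was 40. None of the 43 repeated sites had a peak in both standard controls (0 of 43), and 6 and 2 had a peak in the LNCaP control libraries. The authors discarded ambiguous reads of the standard libraries, and the study states no such step for the low-cell libraries. Whether this step has a part in the 43 sites was not tested.

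The other 49 low-cell-only sites lay in sequence of high GC, with a median of 70.1% against 54.7% at low-cell sites with peaks in both standard libraries. Of these 49, 48 and 45 had a peak in the low-cell control libraries and 4 and 11 in the standard control libraries. LNCaP control replicate 1 had a peak at 46 and replicate 2 at 18, although both are standard-protocol libraries, and LNCaP CTCF siRNA replicate 1 had 30 and replicate 2 had 5. A motif with up to 2 mismatches lay at 35 of them (71.4%).

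Named examples of both kinds stood among the 8 strongest. The NPIPB5 site, in a noncoding exon 36831 bp from a nuclear pore complex-interacting protein family gene, was at 42.3 and 15.2 in the low-cell CTCF siRNA libraries and at 20.9 and 18.8 in the low-cell controls. The OTOA site, in a coding exon of the otoancorin gene, was at 23.6 and 16.6. Both have 2 mismatches to the motif and the same window shown above, all 50-base words around both are repeated, and neither had a peak in a standard or LNCaP library. The EPN2 site, 13056 bp from an epsin gene, has no mismatch, was at 25.7 and 12.3, and is likewise repeated. The sites near ENSG00000283886 and WASH6P were also in repeated sequence.

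The MYL10 site, 59274 bp from a myosin light chain gene, is not repeated. It had 1 mismatch and a GC content of 72.1%, and was at 29.5 and 14.5 in the low-cell CTCF siRNA libraries. It had no peak in the standard IMR90 libraries and was at 31.5 and 5.40 in the LNCaP controls. The SEC14L1 site, 30126 bp from a phosphatidylinositol-transfer family gene and without a mismatch, was at 25.7 and 13 in the low-cell libraries and 35.4 in LNCaP control replicate 1, with no peak in replicate 2. The BLCAP site, 36745 bp from the gene and with 1 mismatch, showed the same order, with 27.6 and 10.1 in the low-cell libraries, 23.4 in LNCaP control replicate 1 and no peak in replicate 2.

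Standard sites within 10000 bp of genes from 10 lists were counted against the background of 10.6% recovered in both low-cell libraries and 27.7% in either. Of 13 sites at imprinted genes, where CTCF is known as an insulator, 4 were recovered in both and 7 in either low-cell library, with a median standard fold enrichment of 24.8 compared with 12.8 over all standard sites. Of those recovered in both, the strongest lay in an intron of the potassium channel gene KCNQ1. It was at 43.0 and 34.5 in the standard and 26.6 and 10.1 in the low-cell libraries. Another site in this gene had a higher mean, at 45.9 and 33.0 in the standard libraries. That site had a peak in low-cell replicate 1 only, at 7.61. Of 14 sites at HOX clusters, whose genes pattern the body axis, 4 were recovered in both and 6 in either. The HOXB7 site was at 38.0 and 31.8 in the standard and 21.9 and 9.41 in the low-cell libraries, while the HOXA10 site, at 22.5 and 15.4, was standard-only.

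Fibroblast matrix and identity genes had 23 standard sites, with 0 recovered in both and 3 in either low-cell library, beside 27.7% in either over all standard sites, and a median fold enrichment of 10.4. The strongest of them lay 5885 bp from PDGFRB, the gene of a platelet-derived growth factor receptor, and was at 44 and 40.9 with no mismatch to the motif. It had no low-cell CTCF siRNA peak and was at 12.2 and 10.2 in the low-cell controls. Sites at CTCF and cohesin genes numbered 13, of which 0 were recovered in both and 1 in either. Ribosomal protein genes, which every cell expresses, had 51 sites, 8 of them recovered in both and 16 in either. Those recovered in both were led by a site near RPL23A. It was at 41.0 and 32.1 in the standard and 16.9 and 11.6 in the low-cell libraries. A stronger site near RPL26, at 47.3 and 42.5 in the standard libraries, had a peak in low-cell replicate 1 only, at 6.19.

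Zinc finger genes of chromosome 19 had 51 sites, 5 recovered in both and 14 in either, near the 10.6% and 27.7% over all standard sites. Their strongest site recovered in both, in an intron of ZNF536, had no mismatch to the motif. It was at 60.3 and 51.6 in the standard and 22.4 and 6.58 in the low-cell libraries. Clustered protocadherin genes, whose promoter choice involves CTCF, had 16 sites with 1 in both and 5 in either. Replication-dependent histone genes had 10 sites with 0 in either, beta-globin genes 3 with 1 in both, and kallikrein genes 1 with none. Since every list is small, no difference from the background was tested for any of them.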

How the data were processed

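Members, gene lists and named-site rules were chosen with earlier results of these data known. For the standard protocol, Bowtie 1.1.0 placed reads on hg19 with at most 3 mismatches, the authors dropped reads that were ambiguous or clonal, and MACS2 2.1.0 made the peak calls at an FDR of 0.05. For the low-cell protocol, the steps were cutadapt 2.4, BWA 0.7.13, removal of duplicates through molecular identifiers and MACS2 2.1.2. Versions are from the study's methods and reporting summary. No input library is stated for either. Each library was called separately. The deposited lists give a fold enrichment (a ratio to local background) and p-values and q-values on a −log10 scale, and no read depth.

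Peaks on chromosomes 1 to 22 and X were matched by an overlap of at least 1 bp, and sites are merged peaks with a peak in both libraries of a protocol. Strength is the mean of both libraries' fold enrichment. Motif matches, GC and repeated words of 50 and 75 bases were read from GRCh37 within 100 bp of the summit, and genes from GENCODE release 44. Shares carry 95% Wilson intervals for counting error only. The study describes the standard ChIP-seq as done in biological duplicate and the low-cell ChIP-seq as done in duplicate, so the spread between libraries may be partly technical, and no source says whether equal replicate numbers share a culture. Named sites are the 8 strongest of each class and, per gene list, the strongest site of each class within 10000 bp. Stronger sites found in low-cell replicate 1 only are also named at KCNQ1 and RPL26. Python 3.11.15, pandas 2.3.3, scipy 1.17.1 and matplotlib 3.10.9 were used, and site building and motif search were tested on simulated data. The alternatives were other overlap rules, a q-value of at most 0.001, equal list lengths by −log10 p or fold enrichment, all contigs, other strength groups and motif settings, same-numbered pairs, and leaving out each library. Wild-type, Hi-C and expression data were not used here.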

Additional observations from a re-analysis of the deposited data

Results flagged for a closer look

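Peaks on unplaced and haplotype contigs, outside the chromosomes compared, made up 1.58% of the listed peaks of low-cell CTCF siRNA replicate 1 and 1.75% of those of replicate 2. Both shares were above those of the low-cell control libraries, at 0.486% and 0.380%, and this is why they are listed here. The number of such peaks was 82 and 36 after CTCF siRNA and 99 and 73 in the controls, so that their share was higher in lists that held fewer peaks in all. Standard lists held 0 such peaks in every library.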

How the results depend on the processing

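Of 77 alternatives over 9 results, 51 stayed within a margin set for each result, 24 moved past it and 2 changed sign. For recovery and the decile gap the margin was the spread between the low-cell libraries. For the overlap and rho differences it was the spread among pairs between protocols. The motif share and equal-length recovery used counting error from a Wilson interval, and site numbers 1.5 times the count. The ratio of list lengths had no spread. The recovery margin, 11.9 percentage points, exceeded the recovery of 10.6%, so no fall could count as a move. Presence or absence of a called peak does not measure how far binding fell, and the depth of the low-cell libraries is not in the lists. The cause of each move was not tested, beyond the change in lists or libraries that each alternative makes.

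Equal list length by −log10 p raised recovery in both low-cell libraries from 10.6% to 39.8%, lowered the gap between top and bottom decile from 44.4 to 19.5 percentage points, and gave 599 low-cell-only and 582 standard-only sites. The mean overlap between protocols minus that within went from -1.72 to -28.4 percentage points, and the motif share of low-cell-only sites minus that of low-cell sites with both standard peaks from -21.5 to -4.61. Equal length by fold enrichment gave 36.4%, a decile gap of 42.0 percentage points, and 658 and 609 sites. It also gave an overlap difference of -30.9 and a rho difference of -0.49, against -0.59. Either low-cell library in place of both gave a recovery of 27.7%, summits within 100 bp a rho difference of -0.56, and all contigs an overlap difference of -5.04. Without repeated sequence, an alternative chosen after seeing the data, 49 of the 92 low-cell-only sites were left.

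Leaving out each library gave recoveries of 9.01% to 27.5%, decile gaps of 40.3 to 76.5 points, rho differences of -0.77 to -0.42, 111 to 515 low-cell-only sites and overlap differences of -7.34 to 5.52 points. With a library left out, a peak in the remaining library of its protocol took the place of a peak in both. The upper recovery, decile gap and site number came without low-cell replicate 2, so the 27.5% is the recovery in replicate 1 given above. The overlap difference changed sign without either low-cell library, to 5.52 without replicate 1 and 1.65 without replicate 2, and the rho difference was -0.77 without low-cell replicate 1. Restricting pairs between protocols to the same replicate number, in place of a replicate block, gave an overlap difference of -1.83 points. The numbers are not known to be paired by culture.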
